A study of Homo sapiens with 4 samples.

Results

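A group of 9 genes of the innate nucleic acid sensing and interferon signalling apparatus was followed here: the RNA sensors DDX58 (RIG-I), IFIH1 (MDA5), DHX58 (LGP2) and TLR3, the adaptor TMEM173 (STING), and the transcription factors STAT2, IRF9, IRF1 and IRF7. They are 9 of the 57879 genes in the deposited tables, picked by their role with the comparison of TET1-CD with control cells in these same libraries already known. Their differences between the groups are therefore given as a description, with a standard error and no test. All 9 were among the 14573 genes with enough counts to be fitted.

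The cells were T24, an established human bladder carcinoma line, grown in RPMI medium with serum and infected with lentivirus. The control cells carried the empty vector (EV) and the other cells stably expressed the FLAG-tagged catalytic domain of TET1 (TET1-CD), the part of this 5-methylcytosine dioxygenase that oxidizes methylated DNA. RNA sequencing gave 2 libraries per group, and the labels give no relation between libraries of the same number and do not say whether they came from separate cultures, so that the p-values below measure the spread between these libraries, which may be technical. All 4 libraries come from 1 line, the domain is overexpressed without the rest of the protein, and cells with a catalytically inactive domain were not analysed here.

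Cells detect foreign or misplaced nucleic acids with a small set of receptors. DDX58 and IFIH1 bind double-stranded or uncapped RNA in the cytosol and signal through MAVS, DHX58 modulates both, TLR3 binds double-stranded RNA in endosomes, and TMEM173 relays the signal of the DNA sensor cGAS (MB21D1). The kinase TBK1 then activates IRF3 and IRF7, which switch on interferon genes. Secreted interferon acts through its receptor and the kinases JAK1 and TYK2 on STAT2, which acts in a complex with IRF9 that binds the interferon-stimulated response element (ISRE). Most of the sensors and factors are themselves interferon targets, and IRF1 is also induced by type II interferon, through the gamma-activated site (GAS).

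The promoters of the members carry these elements unevenly. RefSeq windows of 300 bases (250 before to 50 after the annotated start, GRCh38.p14) were at hand for 6 of the 9 members, and were searched on both strands for the ISRE core, which is GAAA, any 2 bases and GAAA again, and for the GAS core TTCNNNGAA. IRF7, DHX58 and TMEM173 had no entry among the windows. The 4 windows with a match are given 5′ to 3′ on the strand of the gene, because they show which member holds which element. Capitals mark the matches. They are IFIH1 at chr2:162318635-162318934 (minus strand), TLR3 at chr4:186068906-186069205 (plus strand), IRF9 at chr14:24161015-24161314 (plus strand) and IRF1 at chr5:132490724-132491023 (minus strand).
IFIH1: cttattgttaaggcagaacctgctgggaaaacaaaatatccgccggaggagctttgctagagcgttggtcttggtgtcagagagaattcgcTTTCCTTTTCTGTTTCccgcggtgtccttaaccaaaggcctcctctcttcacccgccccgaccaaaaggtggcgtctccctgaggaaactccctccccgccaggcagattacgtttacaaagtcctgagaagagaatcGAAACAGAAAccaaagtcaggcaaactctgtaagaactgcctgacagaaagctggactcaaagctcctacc
TLR3: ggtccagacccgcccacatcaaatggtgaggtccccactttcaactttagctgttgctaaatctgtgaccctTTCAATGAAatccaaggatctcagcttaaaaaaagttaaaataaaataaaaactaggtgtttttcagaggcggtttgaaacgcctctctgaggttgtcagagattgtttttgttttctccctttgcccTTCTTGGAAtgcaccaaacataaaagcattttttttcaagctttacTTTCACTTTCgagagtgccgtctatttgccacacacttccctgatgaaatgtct
IRF9: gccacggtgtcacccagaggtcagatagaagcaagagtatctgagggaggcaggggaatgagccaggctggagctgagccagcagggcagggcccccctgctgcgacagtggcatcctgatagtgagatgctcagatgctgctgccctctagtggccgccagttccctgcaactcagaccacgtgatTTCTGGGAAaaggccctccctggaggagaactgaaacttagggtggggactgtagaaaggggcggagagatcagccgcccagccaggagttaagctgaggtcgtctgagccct
IRF1: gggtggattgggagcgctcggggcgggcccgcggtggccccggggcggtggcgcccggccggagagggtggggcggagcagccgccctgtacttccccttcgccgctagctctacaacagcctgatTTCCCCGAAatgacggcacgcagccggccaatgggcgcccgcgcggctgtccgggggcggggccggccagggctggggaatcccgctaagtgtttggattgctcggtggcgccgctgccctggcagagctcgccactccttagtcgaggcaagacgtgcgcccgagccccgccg

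IFIH1 held 3 matches to the ISRE core, of which GAAACAGAAA read on the strand of the gene and the other two overlapped each other as 1 run in the opposite orientation. TLR3 held 1 ISRE match, TTTCACTTTC, right at the annotated start, and 2 GAS matches, TTCAATGAA and TTCTTGGAA. IRF9 and IRF1 held 1 GAS match each, TTCTGGGAA and TTCCCCGAA, and no ISRE core. The DDX58 and STAT2 windows held neither pattern. The ISRE core was held by 3.57% and the GAS core by 7.66% of all 35116 windows. Of the 39 interferon target genes with a window, 74.4% and 33.3% held them in at least 1 window. These shares are per gene and not per window. CpG dinucleotides, the substrate of DNA methylation, numbered 36 in the IRF1 window, 27 in DDX58, 25 in STAT2, 12 in IFIH1, 7 in IRF9 and 5 in TLR3, against a median of 14 over all windows. A match is a run of letters and not a measured binding site, and DNA methylation was not measured in these files.

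The libraries held 17442135 to 20295260 estimated counts, and normalization factors lay between 0.9934 and 1.005. TET1 counts were 111 and 83 in EV and 2939 and 3310 in TET1-CD, in the direction of the labels. Of 6 listed epithelial markers the keratins KRT7, KRT8 and KRT18 lay between 10759 and 22638 counts in every library. KRT19 and EPCAM were low (66 to 169 and 46 to 86 counts), and CDH1 had at most 2 counts. KRT7 (log2 fold change 0.34), KRT18 (0.18) and KRT19 (1.01) were higher in TET1-CD at an adjusted p under 0.05 in edgeR. Without TET1-CD replicate 1 or TET1-CD replicate 2 the values were 0.33 and 0.35 for KRT7 and 0.17 and 0.19 for KRT18. KRT7 lost its call in the first of these fits and KRT18 in both. Such a fit takes its spread from the 2 EV libraries. Of 11 urothelial markers 4 passed the expression filter, among them PPARG (363 to 461 counts) and UPK3B (16 to 38). FOXA1 (366 to 587, log2 fold change 0.37, adjusted p = 0.0204) and GATA3 (19 to 46, 1.25, adjusted p = 0.0163) were called higher in edgeR. Both calls were lost by DESeq2 and in some fits that left out 1 library. UPK1A, UPK1B, UPK2, UPK3A and TP63 had at most 6 counts in any library, and KRT5 and KRT20 were at 0 throughout. Of 9 listed endothelial and fibroblast markers 8 had an entry under the symbol used, PECAM1 being without one, and 2 passed the expression filter. COL1A1, a fibroblast marker, was higher (1.89, adjusted p = 1.03e-05 in edgeR), and CDH5, an endothelial marker at 9 to 22 counts, was not called. The fibroblast markers COL1A2, COL3A1, DCN and LUM had at most 4 counts in any library, and the endothelial markers VWF and KDR at most 6. The part of these differences in the results below was not tested. Leukocyte markers were close to absent, with 3 of 12 listed genes above the expression filter and no marker above 34 counts. Their summed FPKM was 2.06 and 2.14 in EV and 1.59 and 1.31 in TET1-CD, ITGAM was the 1 lower at an adjusted p under 0.05 (22 and 29 against 3 and 8 counts, a call lost by DESeq2 and without EV replicate 2 or either TET1-CD library), the pan-leukocyte marker PTPRC had at most 2 counts, and CLEC4C, of plasmacytoid dendritic cells, was at 0. Over all genes tested the 2 EV libraries were further apart than the 2 TET1-CD libraries (chi-square of the counts per gene, 6.41 against 2.75). The EV libraries also differed from each other in interferon genes. EV replicate 2 was above EV replicate 1 for 46 of 48 interferon target genes (median log2 ratio 0.34) and for 8 of the 9 members (median 0.26), whereas the median over all genes was 0.00. The 2 TET1-CD libraries had medians of 0.03 for the targets and 0.02 for the members. For members, values without EV replicate 2 are therefore given where they move.

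**Figure D1:**
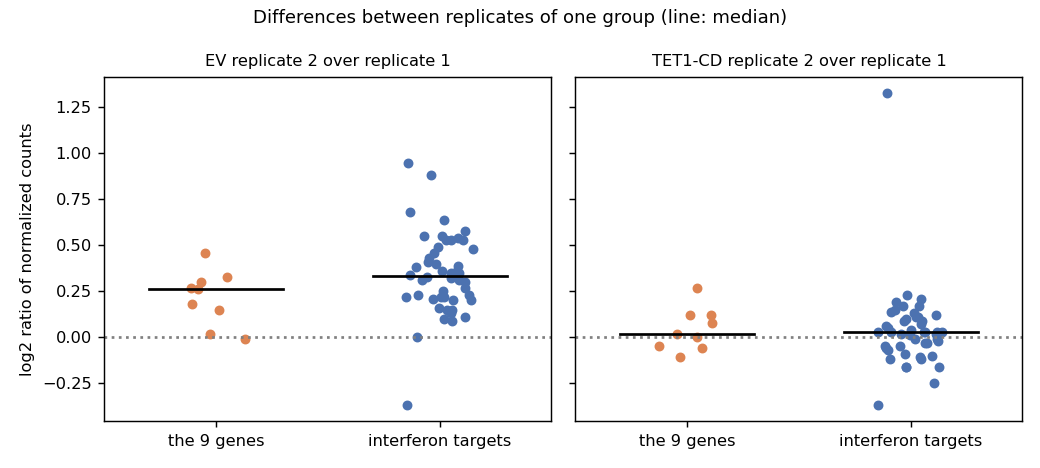
Log2 ratio of normalized counts between the 2 libraries of one group, for the 9 members and for 48 interferon target genes (points; line, median), in EV (left) and TET1-CD (right). In EV nearly all points lie above 0, with medians of 0.26 and 0.34, and in TET1-CD they lie around 0.

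Normalized counts of 8 of the 9 members were lower in both TET1-CD libraries than in either EV library, and IRF9 was the exception. Such a split, both TET1-CD libraries below both EV libraries, was seen in 30.2% of all genes tested. The same 8 members were among the genes lower at an adjusted p under 0.05 (edgeR quasi-likelihood test), a set that held 9.61% of all genes tested. Because the members were chosen with this contrast in view, nothing is read from either count. The second count changed in some fits that left out 1 library, and so did the share of all genes called lower. No member reached a 2-fold change, which 1.04% of all genes tested did on the lower side and 2.72% on the higher side at the same adjusted p. The median log2 fold change of the members was -0.59 (TET1-CD minus EV) and that of all genes 0.00. In a bulk sample, fewer cells expressing a gene and less RNA per cell cannot be told apart.

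**Figure D2:**
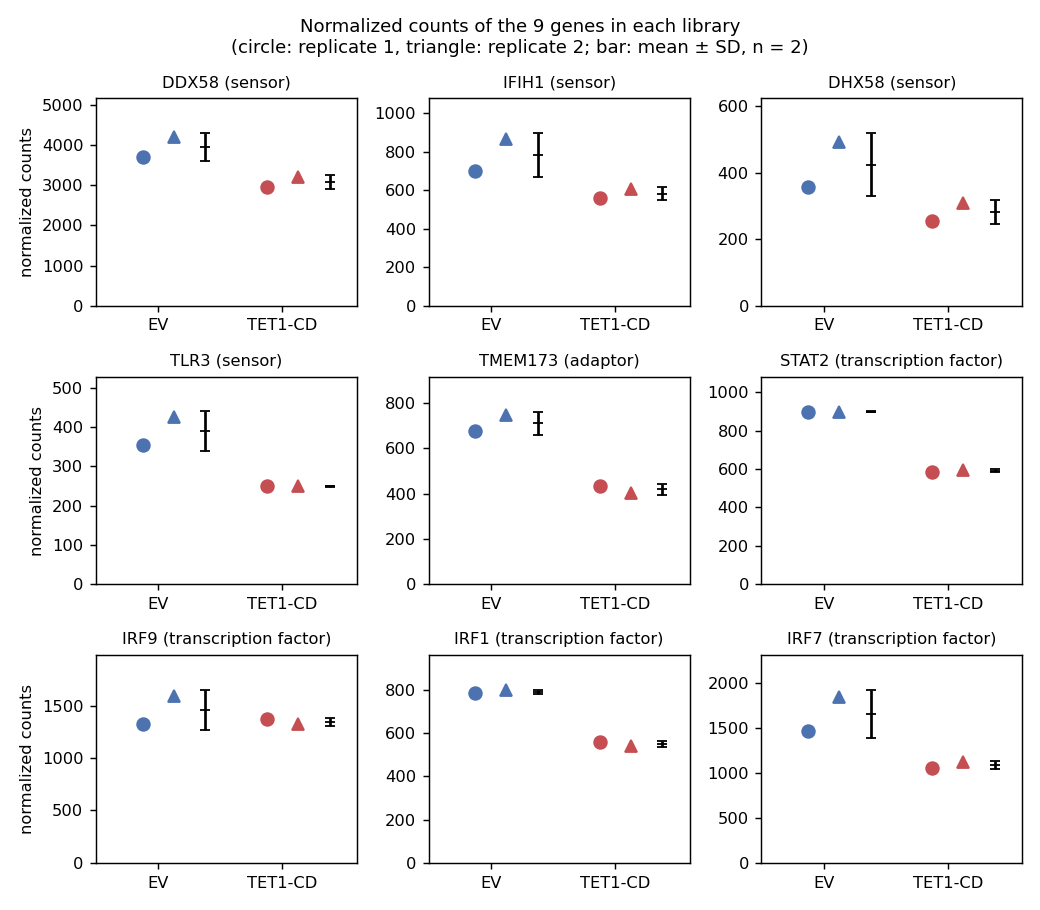
Normalized counts (vertical axis, from 0) of the 9 members in the 2 EV (blue) and 2 TET1-CD (red) libraries, with the mean and SD (n = 2) beside each group. The groups are apart for 8 members, and the IRF9 libraries overlap.

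Among the cytosolic RNA sensors, DDX58 had the fold change nearest to 0. Its gene lies at chr9:32455300-32526322 (GRCh37, minus strand), and its normalized counts were 3696.5 and 4197.6 in EV and 2950 and 3201.2 in TET1-CD. The groups did not overlap, with the lower EV library 1.15 times the higher TET1-CD library. This is a log2 fold change of -0.36 (SE 0.07), or 78.0% of the EV level, and without EV replicate 2 it was -0.27.

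IFIH1, which senses long double-stranded RNA, lies at chr2:163123589-163175213 (minus strand). Its normalized counts were 700 and 863 in EV and 558 and 606 in TET1-CD. Both TET1-CD libraries were lower, by a margin smaller than the gap between the EV libraries. The log2 fold change was -0.42 (SE 0.10) and went to -0.27 without EV replicate 2.

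DHX58, the regulatory relative of DDX58 and IFIH1 that lacks the signalling domains, lies at chr17:40253422-40264751 (minus strand) and varied most between replicates. Normalized counts were 358 and 492 in EV and 255 and 308 in TET1-CD. The groups did not overlap, but the EV libraries stood 0.46 apart on the log2 scale and the TET1-CD libraries 0.27. Its log2 fold change of -0.59 (SE 0.15) became -0.35 without EV replicate 2 and -0.81 without EV replicate 1, so that the size of the difference depends on which EV library is kept.

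TLR3, the endosomal sensor, lies at chr4:186990306-187009223 (plus strand). It had 354 and 425 normalized counts in EV against 249 and 249 in TET1-CD. The TET1-CD libraries were alike and both below EV. Its log2 fold change was -0.64 (SE 0.11), 64.0% of the EV level, and -0.51 without EV replicate 2.

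TMEM173, the adaptor downstream of cGAS at chr5:138855119-138862520 (minus strand), had the lowest fold change of the 9 members. Normalized counts were 674 and 747 in EV and 435 and 402 in TET1-CD. The lower EV library was 1.55 times the higher TET1-CD library, the widest gap among the members. At 59.0% of EV, its log2 fold change of -0.76 (SE 0.09) stayed between -0.84 and -0.69 when any library was left out. Among all genes tested this value stood at percentile 3.29, counted from the lowest fold change. Counts of MB21D1, which makes the cyclic dinucleotide that TMEM173 binds, were 632 and 556 in EV and 660 and 725 in TET1-CD (log2 fold change 0.24, SE 0.07, adjusted p = 0.0505 in edgeR, and 0.0293 to 0.345 over the alternatives). The ratio of TMEM173 to MB21D1 counts within a library, which needs no scaling between libraries, was 1.16 and 1.24 in EV and 0.62 and 0.582 in TET1-CD.

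Of the transcription factors, STAT2 was the most even between replicates. This subunit of the interferon-activated complex, at chr12:56735381-56753939 (minus strand), had 899 and 895 normalized counts in EV against 586 and 596 in TET1-CD. Both groups were tight and apart, with the lower EV library 1.5 times the higher TET1-CD library. A log2 fold change of -0.60 (SE 0.07), 66.0% of EV, ranged only from -0.61 to -0.59 when single libraries were left out. STAT2 thus did not share the gap between the EV libraries seen in the sensors.

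IRF9, the DNA-binding subunit of the same complex at chr14:24630262-24635774 (plus strand), did not show the split seen in STAT2. Normalized counts were 1321.4 and 1591.6 in EV and 1371.8 and 1320.1 in TET1-CD, and the groups overlapped. The log2 fold change was -0.11 (SE 0.08), and without EV replicate 2 it was 0.02. A second annotated gene on the same strand, at 79 to 108 counts, spans all of IRF9, and how reads of the overlap were divided between them is not given in the sources used here. Within a library, the ratio of STAT2 to IRF9 counts was 0.68 and 0.562 in EV and 0.427 and 0.452 in TET1-CD. This ratio did not overlap between the groups, and the difference between the fold changes of STAT2 and IRF9 was not tested.

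IRF1, a factor that acts on interferon and antigen presentation genes, lies at chr5:131817301-131826490 (minus strand). It had 783 and 796 normalized counts in EV against 560 and 539 in TET1-CD. Like STAT2 it was tight within groups, and the groups were apart. Its log2 fold change was -0.52 (SE 0.07), 69.6% of EV, and lay between -0.55 and -0.50 without single libraries.

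IRF7, which amplifies type I interferon production, lies at chr11:612553-615999 (minus strand). Its normalized counts were 1470.9 and 1846.3 in EV and 1057.8 and 1118.2 in TET1-CD. The groups did not overlap, but the EV libraries were 0.33 apart on the log2 scale. On that scale the fold change was -0.61 (SE 0.10), 65.7% of EV, and -0.44 without EV replicate 2. The ratio of IRF7 to IRF3 counts within a library was 1.84 and 2.14 in EV and 1.1 and 1.21 in TET1-CD.

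**Figure D3:**
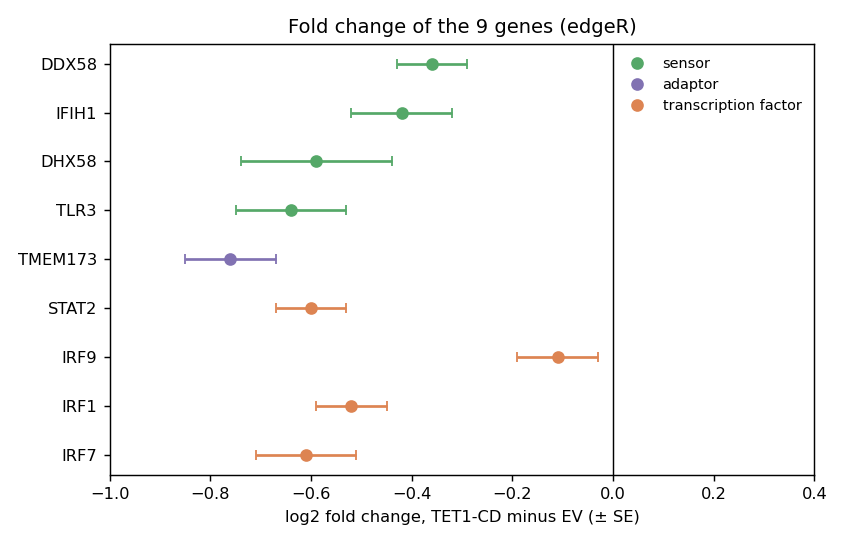
Log2 fold change (TET1-CD minus EV, edgeR) of the 9 members with its standard error, coloured by role. Values run from -0.76 for TMEM173 to -0.11 for IRF9.

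On the scale of FPKM, which corrects for transcript length and so lets genes be compared, the members fell into 3 tiers in EV. DDX58 (55.9 ± 4.27 FPKM, SD, n = 2), IRF7 (50.7 ± 8.28) and IRF9 (49.3 ± 6.73) formed the upper tier and did not differ beyond their spread. IRF1 (24.9 ± 0.785), TMEM173 (20.4 ± 1.2) and STAT2 (17.6 ± 0.636) followed, each apart from the next. IFIH1 (12.7 ± 1.69) and DHX58 (10.7 ± 2.16) overlapped in spread, and TLR3 (7.19 ± 0.912) was lowest. In TET1-CD, IRF9 (46.0 ± 0.735) and DDX58 (44.7 ± 2.19) led without differing beyond their spread, IRF7 (34.1 ± 1.29) was below them, and IRF1 (17.1 ± 0.219), TMEM173 (12.6 ± 1.05), STAT2 (12.1 ± 0.283), IFIH1 (9.84 ± 0.502), DHX58 (7.56 ± 1.56) and TLR3 (4.62 ± 0.247) came after in the same order as in EV. TMEM173 and STAT2 did not differ beyond their spread there.

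The transcripts of a member did not all follow the gene. Counts in the files are estimated per transcript, and the division among overlapping transcripts is uncertain. IRF7 showed the widest split: its leading transcript ENST00000397574 held 663 and 731 counts in the EV libraries against 202 and 338 with TET1-CD, or 41.6% and 42.7% of the gene in EV and 20.3% and 28.8% in TET1-CD. The log2 ratio of TET1-CD to EV was -1.38 for this transcript and -0.23 for the rest of IRF7 summed. The second transcript, ENST00000330243, held 305 and 190 counts in the EV libraries against 284 and 306 with TET1-CD. These counts are not scaled for library depth, so no overlap of the groups is read from them. Its share of the gene, which needs no such scaling, was 19.1% and 11.1% in EV and higher in both TET1-CD libraries. In IRF9 the leading transcript ENST00000396864 was level between groups (log2 ratio -0.02) while the others summed were at -0.44. In IFIH1 the leading transcript, with 89.3% to 92.8% of the counts, was at -0.47 and the small remainder at 0.01. For DDX58, DHX58, TLR3 and TMEM173 the leading transcript and the rest were within 0.07 of each other on the log2 scale. For STAT2 the values were -0.46 and -0.75, and for IRF1 -0.40 and -0.69.

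**Figure D4:**
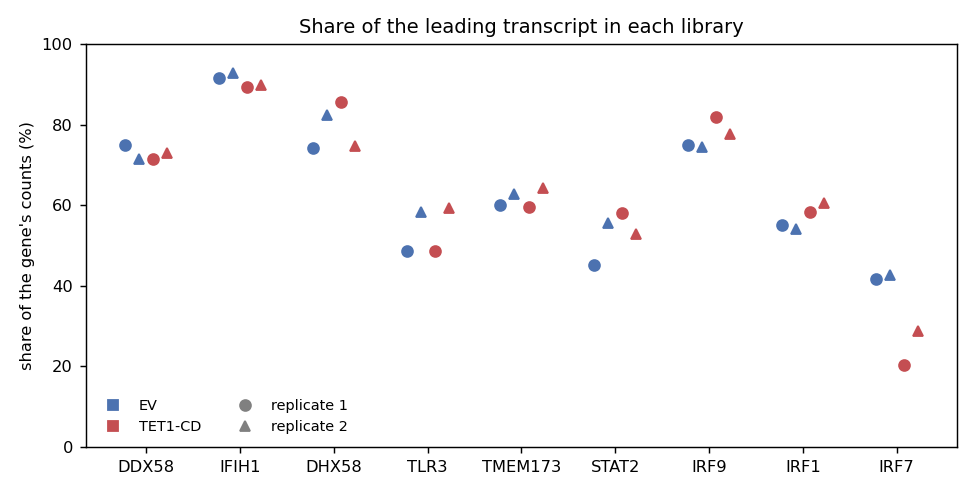
Share of each member's counts (%) taken by its leading transcript in every library. IRF7 is the member in which the TET1-CD libraries (20.3% and 28.8%) lie far below EV (41.6% and 42.7%).

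The rest of the pathway was read from lists of genes by role, 138 of which could be tested. By the edgeR test 53 were lower and 8 higher in TET1-CD, against 9.61% lower and 10.0% higher among all genes tested. Of the 53, 33 came from the list of interferon targets. The lists were written with earlier results of these data known, so nothing is read from an excess over these shares. The counts of 53 and 8 are sensitive to single libraries. Without TET1-CD replicate 1 they were 23 and 0, and without TET1-CD replicate 2 they were 28 and 2. Without EV replicate 2 they were 50 and 16. Leaving out a TET1-CD library also lowered the share of all genes called lower, to 2.63% and 3.3%.

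Other sensors of nucleic acids were lower in 6 of 12 tested and higher in none (median log2 fold change -0.25), and lower in 3 without TET1-CD replicate 1 or without TET1-CD replicate 2. MB21D1 was called higher under 5 of 11 alternatives. IFI16, a DNA sensor, had a log2 fold change of -0.46 (SE 0.07, adjusted p = 1.26e-03). OAS1 and OAS3, which make the second messenger that activates RNase L, were at -0.83 (SE 0.15, adjusted p = 3.71e-03) and -0.41 (SE 0.07, adjusted p = 2.38e-03). OAS1 went to -0.52 without EV replicate 2, and OAS3 lost its call without TET1-CD replicate 2 (adjusted p = 0.0505 in edgeR). DDX60 and ZNFX1, RNA helicases of the same pathway, did not pass (-0.09, adjusted p = 0.396, and -0.13, adjusted p = 0.124).

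Of 18 adaptors and kinases 3 were lower and 2 higher, with a median of -0.03, and by DESeq2 1 was lower and 1 higher. Without TET1-CD replicate 1 none passed, and without TET1-CD replicate 2 only 1 was lower. MAVS, the mitochondrial adaptor shared by DDX58 and IFIH1, fell (-0.35, SE 0.07, adjusted p = 8.04e-03), as did FADD (-0.24, adjusted p = 0.0167), and TRAF2, a ubiquitin ligase, rose (0.37, SE 0.06, adjusted p = 2.94e-03). MAVS lost its call without TET1-CD replicate 1, TRAF2 without either TET1-CD library, and FADD without either and by DESeq2. TBK1, the kinase that activates IRF3, was at -0.01 (SE 0.06, adjusted p = 0.903). Interferon genes themselves were hardly detected: 19 of 21 listed genes had no library above 3 counts, and only IFNE, at 25 to 42 counts, could be tested (adjusted p = 0.843). IFNB1 counts were 0 and 3 for EV against 0 and 1 for TET1-CD, at or under the limit of 3 counts, so a difference was not detectable at this depth.

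Among receptors and Janus kinases 1 of 9 was lower and 1 higher. IFNAR1, a chain of the type I interferon receptor, fell (-0.36, SE 0.06, adjusted p = 2.18e-03). IFNLR1, a chain of the type III receptor, rose from 31 and 24 counts to 69 and 60 (1.25, SE 0.26, adjusted p = 8.94e-03). IFNAR1 lost its call without TET1-CD replicate 1 (adjusted p = 0.0508 in edgeR) and without TET1-CD replicate 2 (0.0516), and IFNLR1 by DESeq2 (0.0775) and without TET1-CD replicate 1 (0.126). Without EV replicate 1 the list had 2 lower. JAK1 (-0.07, adjusted p = 0.343) and TYK2 (0.17, adjusted p = 0.0829) did not pass the test. Of the other STAT and IRF factors 3 of 9 were lower and 1 higher. Among them, IRF2 was at -0.34 (SE 0.08, adjusted p = 0.0161) and STAT6 at -0.25 (adjusted p = 0.0115). Without TET1-CD replicate 1 or without TET1-CD replicate 2 none of the 9 was called in either direction, and by DESeq2 2 were lower, IRF2 no longer among them (adjusted p = 0.128), and 0 higher. IRF3, which is not an interferon target, was at 0.18 (SE 0.07, adjusted p = 0.0973), and without EV replicate 2 at 0.23 with an adjusted p of 0.0178 in edgeR.

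Of the NF-κB genes 1 of 12 was lower and 1 higher, namely TNFAIP3, a feedback inhibitor (-0.36, adjusted p = 3.00e-03), and CHUK, a kinase of the pathway (0.31, adjusted p = 4.72e-03). TNFAIP3 lost its call without TET1-CD replicate 2 and CHUK without either TET1-CD library, and without EV replicate 1 the list had 3 lower and 3 higher. Of the negative regulators 4 of 19 were lower and 2 higher. By DESeq2 these counts were 1 and 1, without TET1-CD replicate 1 they were 1 and 0, and without TET1-CD replicate 2 they were 1 and 1. IRF2BP2, a corepressor, fell (-0.53, SE 0.06, adjusted p = 2.49e-04), PIAS2 fell (-0.39, adjusted p = 8.05e-03) and SOCS3, an inhibitor of cytokine signalling, rose (0.34, SE 0.07, adjusted p = 8.66e-03). PIAS2 lost its call by DESeq2 (adjusted p = 0.0538) and without either TET1-CD library, and SOCS3 without TET1-CD replicate 1. USP18, the interferon-induced brake on the type I receptor, was at -0.06 (SE 0.17, adjusted p = 0.841), without EV replicate 2 at 0.29 (adjusted p = 0.0443) and without EV replicate 1 at -0.36 (adjusted p = 9.87e-03), each in edgeR. SOCS1 had few counts and did not pass (-0.11, adjusted p = 0.812, and 0.12 without EV replicate 2). Of 10 genes that remove or edit nucleic acids 2 were lower, SAMHD1, a dNTPase (-0.53, SE 0.06, adjusted p = 4.64e-04), and ADAR, an RNA editing enzyme (-0.22, adjusted p = 0.0202). ADAR lost its call without either TET1-CD library, and without EV replicate 1 the list had 4 lower.

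Interferon target genes, whose link to the levels of STAT2 and IRF9 was not tested, were lower in 33 of 48 and higher in 1, with a median of -0.42. Without EV replicate 2 they were lower in 29 and higher in 6, and without TET1-CD replicate 1 lower in 17 and higher in 0. None was higher by DESeq2, without EV replicate 1 or without TET1-CD replicate 2. This list was chosen with results of these libraries known, so its direction is not independent evidence. The 3 with the smallest p were IFITM2, which restricts virus entry (-1.12, SE 0.12, adjusted p = 2.75e-04), and the strongly interferon-induced IFI6 (-1.06, SE 0.12, adjusted p = 3.90e-04) and IFI27 (-0.79, SE 0.10, adjusted p = 6.59e-04). Of the 12 genes chosen by the naming rule that lost their call without TET1-CD replicate 1 and the 11 that did without TET1-CD replicate 2, all kept their direction.

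**Figure D5:**
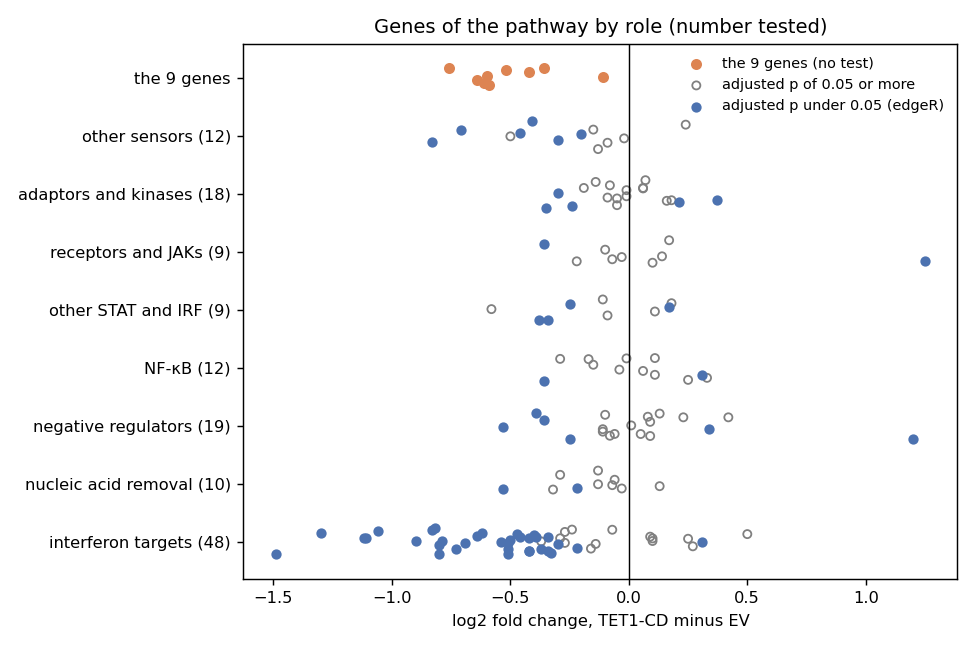
Log2 fold change (TET1-CD minus EV) of the 9 members and of each tested gene in 8 lists of the pathway (number tested in brackets). Filled blue points passed an adjusted p of 0.05 in edgeR: 33 of 48 interferon targets and 6 of 12 other sensors were lower, and both the adaptors and kinases and the receptors and Janus kinases had a median of -0.03.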

How the data were processed

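RNA sequencing of T24 cells, with 2 libraries per group, was analysed from tables of transcripts. Per the submitters' processing notes, reads were trimmed with cutadapt 1.9.1 and handled with HISAT2 2.0.1, HTSeq 0.6.1 and DESeq2 on hg19. The tool that gave estimated counts that are not whole numbers was not given in the sources used here. The deposited tables by the authors hold expected counts and FPKM per transcript. Both were summed per gene, and the counts were rounded. Genes passing filterByExpr (14573) were fitted with edgeR 4.0.16 (TMM, quasi-likelihood, R 4.3.3) and adjusted by Benjamini-Hochberg, with calls at 0.05. Normalized counts are counts divided by the effective library size and scaled to its mean. Values of overlapping genes rest on how shared reads were divided in the deposited counts. On simulated counts with 200 changed genes, edgeR recovered 81.4% of 2-fold and 96.1% of 4-fold changes, and 17 of its 195 calls were unchanged genes (5 of 171 by DESeq2). Alternatives used DESeq2 1.42.0, limma 3.58.1, other scaling and filters, FPKM on a log2 scale with pseudocounts of 0.1 and 1, single transcripts and leaving out each library. Genes named are the 9 members, fixed landmarks and the 3 smallest p in each list among those at an adjusted p under 0.05, and genes beyond these were named after their values were seen. One landmark gene is not reported here. Members and lists were chosen with earlier results of these data known. Depth was 17442135 to 20295260 counts per library.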

Additional observations from a re-analysis of the deposited data

How the results depend on the processing

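With 2 libraries per group, single libraries set much of the result. The count of genes lower in TET1-CD was 1401, 720 by DESeq2 and 399 to 1904 when 1 library was left out (399 without TET1-CD replicate 1, 494 without TET1-CD replicate 2), and the count higher was 1464, 748 by DESeq2 and 433 to 1880 (433 and 520). Over the pathway lists the counts were 53 lower (23 to 71 without 1 library) and 8 higher (3 by DESeq2, 13 with no filter, 0 to 16 without 1 library). The members' median of -0.59 became -0.47 with the leading transcript only and -0.61 to -0.44 without 1 library, with -0.44 without EV replicate 2. Signs turned for IRF9 (-0.25 to 0.02 without 1 library), USP18 (-0.36 to 0.29) and SOCS1 (-0.33 to 0.12), all without EV replicate 2. They also turned for IFIH1 (0.01) when the leading transcript was left out, a choice added after the data were seen. MX1, named after its value was seen, turned from 0.10 to -0.12 without EV replicate 1. Leaving out a replicate leaves 1 library in a group, which is then taken to vary like the other group. All other alternatives for the members' median, scaling, filters, limma-voom and FPKM among them, left it within the spread between replicates. The replicate block gave 1613 genes lower and 1622 higher, and 57 and 10 in the pathway lists. Deviations of same-numbered libraries had a correlation of 0.00713, so the numbers are not taken to pair the samples. Depth limits IFNB1 and most interferon genes, at 3 counts or fewer.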

Other observations

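Some interferon target genes did not follow the others, and are given here as values chosen after they were seen. TAP1, the peptide transporter of antigen presentation, was the target called higher (1330 and 1415 counts for EV against 1623 and 1756 for TET1-CD, log2 fold change 0.31, SE 0.09, adjusted p = 0.0394 in edgeR). This call was lost by DESeq2 (adjusted p = 0.0609), without EV replicate 1 (0.15, adjusted p = 0.0719), without TET1-CD replicate 1 (adjusted p = 0.237) and without TET1-CD replicate 2 (adjusted p = 0.15). The guanylate-binding proteins GBP1 (0.25, SE 0.11, adjusted p = 0.15), GBP2 (0.27, adjusted p = 0.235) and GBP3 (0.09, adjusted p = 0.417) did not pass the test. Without EV replicate 2, GBP1 was at 0.46 (adjusted p = 9.24e-05) and GBP2 at 0.56 (adjusted p = 1.11e-03), and without EV replicate 1 they were at 0.05 and 0.02. MX1, an antiviral GTPase, was at 0.10 (SE 0.12, adjusted p = 0.602), at 0.34 without EV replicate 2 (adjusted p = 4.49e-04) and at -0.12 without EV replicate 1, whereas RSAD2 (-0.90, SE 0.17, adjusted p = 5.62e-03) and IFI44L (-1.11, SE 0.17, adjusted p = 2.07e-03), also strongly induced by type I interferon, fell. The chemokine genes CXCL11, at 108 and 130 counts for EV against 45 and 39 for TET1-CD (-1.49, SE 0.23, adjusted p = 1.96e-03), and CXCL10 (-1.30, SE 0.38, adjusted p = 0.0397) fell, and CCL5 was at 0.50 (SE 0.26, adjusted p = 0.213). Calls were lost for CXCL10 by DESeq2, without EV replicate 2 (adjusted p = 0.0794) and without TET1-CD replicate 1, and for RSAD2 without TET1-CD replicate 2 (adjusted p = 0.0508), and CCL5 was at 1.03 without EV replicate 2 (adjusted p = 2.80e-03) and 0.08 without EV replicate 1.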
